A study of Kluyveromyces lactis with 6 samples.

Results

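These 58 genes of the budding yeast Kluyveromyces lactis lay away from the chromosome ends, were detected in wild-type cells, most of them at a low level, and stood at least 4 times higher in both sir2Δ isolates. They were chosen from the values themselves: a mean of 5 to 1500 FPKM in WT (fragments per length of gene, scaled to the mapped total) and a difference of at least 2 in log2(FPKM + 1) over WT in each isolate. The 30 genes at each chromosome end and 4 genes named in the rule (NPT1, TNA1, GAL1 and GAL10) were dropped. The rule found 58 of 5076 genes, or 1.32% of the 4407 internal genes in that WT range. Their levels in sir2Δ against WT are therefore a description, and no test is read from them.

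RNA was sequenced from 3 strains grown to early log phase at 30 °C in rich glucose medium, with 2 libraries each: sir2Δ isolate 1 (LRY2849), sir2Δ isolate 2 (LRY2850) and WT (LRY2835, which carries SIR2). All 3 are MATa, and in all 3 both silent mating cassettes, HML and HMR, are deleted. Per the design text the 2 libraries of each strain are technical, so spreads within a strain hold no variation between cultures and WT is a single strain. The comparison asks which genes differ in level when SIR2 is absent.

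Sir2 is a histone deacetylase that uses NAD+ and keeps chromatin in a silent state, and in K. lactis it is known to act together with the DNA-binding protein Sum1 at genes of the sexual cycle. In yeasts, sporulation genes are normally kept low in cells growing on rich glucose medium. Genes for peroxisomal fatty acid oxidation and the glyoxylate cycle, which make sugars and energy from fat and acetate, are also low while glucose is plentiful. In the following, roles are those known for the S. cerevisiae genes of the same name.

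SIR2 (KLLA0F14663g, an identifier taken from general knowledge of the species) was at 0.0916 and 0.0845 FPKM in isolate 1 and at 0.108 and 0.0503 FPKM in isolate 2, against 66.9 and 64.9 FPKM in WT. The sum of FPKM over all genes ran from 1542502 to 1803539 per library, highest in replicate 2 of isolate 2. Spore wall markers moved with the deletion: 3 of 6 were found (SSP2, DIT1 and DIT2), and they summed to 191 and 176 FPKM in isolate 1 and to 209 and 199 FPKM in isolate 2, against 32.9 and 41.7 FPKM in WT. Of the a-cell markers 5 of 7 were found, summing to 231 to 279 FPKM in sir2Δ and to 32.8 and 34.0 FPKM in WT. Most of this difference came from AGA2 alone, at 182 to 222 FPKM in sir2Δ (log2 change 5.68). BAR1 (3.62) and ASG7 (0.89) were also called higher (limma, adjusted p under 0.05). STE6 was not called (0.46, adjusted p = 0.125, limma). STE2 was slightly lower in sir2Δ and not called (−0.23, adjusted p = 0.435, limma). The alpha-cell markers STE3 and SAG1, 2 of 4 listed, summed to 49.4 to 61.8 FPKM in sir2Δ and to 47.5 and 45.3 FPKM in WT. No marker found was at 0 in both WT libraries, and the receptor genes of both cell types, STE2 and STE3, were detected in all 6 libraries. The part of these markers in the results below was not tested. The RNA came from whole cultures, so more cells expressing a gene and more RNA per cell cannot be told apart.

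In the sir2Δ libraries the 58 genes ranked in the middle and upper part of the transcriptome, and in WT most ranked near the bottom. Their median level was 105 FPKM in isolate 1 and 112 FPKM in isolate 2, against 14.7 FPKM in WT. The medians over all genes were close to each other, at 56.8, 57.0 and 58.6 FPKM in isolate 1, isolate 2 and WT. In isolate 1, 45 of the 58 lay above the median of all genes, and in isolate 2, 47 did, against 7 in WT. In WT 43 lay under the lower quartile of all genes (27.5 FPKM), whereas none did in either isolate. The rule nearly ensures the absence in the isolates. Its WT minimum and its fold together set a floor for each isolate mean, not far below that quartile. Together the 58 held 1.38% and 1.52% of summed FPKM in isolate 1 and 1.54% and 1.71% in isolate 2, against 0.188% and 0.185% in WT.

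The log2 difference, averaged over the isolates, was between 2 and 2.5 for 20 genes, between 2.5 and 3 for 18, between 3 and 4 for 16 and at least 4 for 4 genes, with a median of 2.66. In every one of the 58 the lowest sir2Δ library was above the highest WT library. The rule nearly ensures this, as it asks for a 4-fold gap of means and technical libraries differed by at most 0.57 (log2). The smallest such ratio was 3.42, at KLLA0A09779g. All 58 were also among the genes called higher by limma (adjusted p under 0.05), where 20.2% of the 5021 genes tested were called higher, but the rule used the same contrast and nothing is read from that count.

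**Figure D1:**
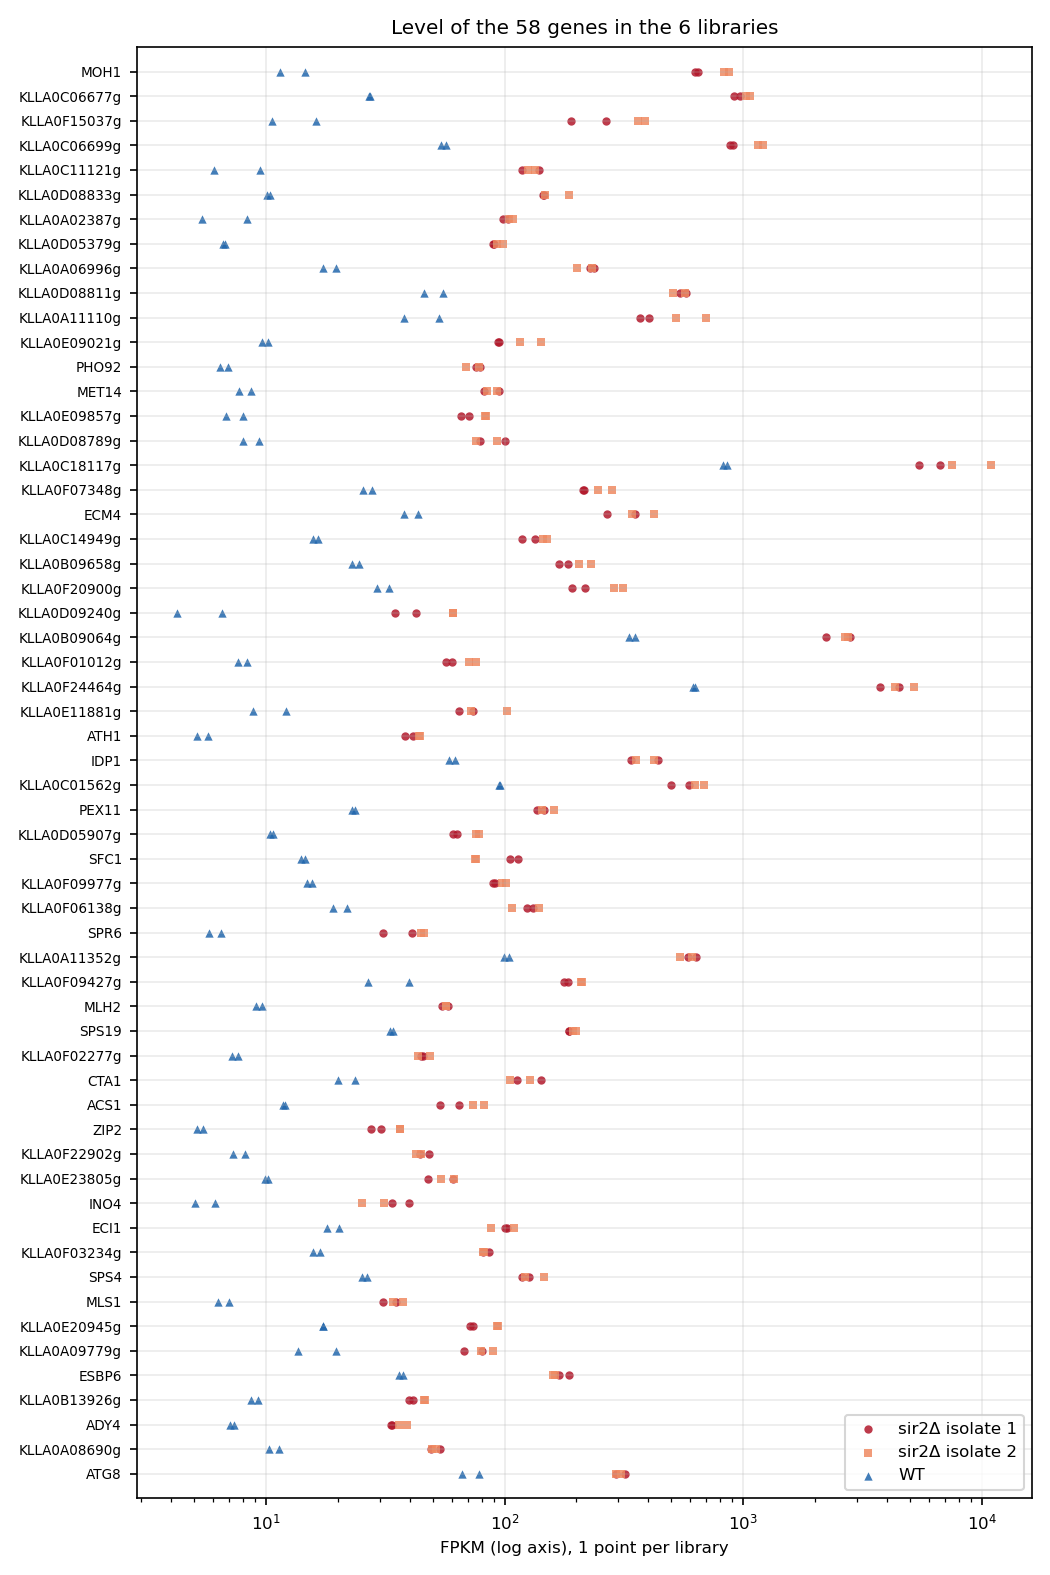
Level of each of the 58 genes in FPKM on a log axis, with 1 point per library: circles for sir2Δ isolate 1, squares for sir2Δ isolate 2 and triangles for WT, ordered from the largest to the smallest log2 difference averaged over the isolates. In every line the 4 sir2Δ points lie to the right of both WT points, which the rule nearly ensures. MOH1, at the top, stands at 626 to 876 FPKM in sir2Δ and at 11.5 and 14.5 FPKM in WT.

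The largest difference was at MOH1 (KLLA0E05875g), a gene linked to survival in stationary phase. MOH1 was at 626 and 644 FPKM in isolate 1 and at 832 and 876 FPKM in isolate 2, against 11.5 and 14.5 FPKM in WT, a log2 difference of 5.51 and 5.94. Both isolates were far above WT, and the libraries of isolate 2 lay above those of isolate 1.

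Next came a pair of adjoining genes on chromosome C that have no symbol in RefSeq. KLLA0C06677g was at 918 and 966 FPKM in isolate 1 and at 1023 and 1068 FPKM in isolate 2, against 27.2 and 27.0 FPKM in WT (log2 5.07 and 5.22). KLLA0C06699g was at 909 and 879 FPKM in isolate 1 and at 1210 and 1151 FPKM in isolate 2, against 54.1 and 56.8 FPKM in WT (log2 3.99 and 4.39). The pair reached similar levels in sir2Δ, while in WT KLLA0C06699g, on this per-length scale, was the higher of the pair.

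Another 8 genes without a symbol were among the 15 largest differences with levels of about 100 FPKM or more in sir2Δ. KLLA0F15037g was at 190 and 265 FPKM in isolate 1 and at 387 and 363 FPKM in isolate 2, against 10.6 and 16.2 FPKM in WT (log2 3.99 and 4.71). Among the 58 it had the widest split between technical libraries in both isolate 1 and WT, 0.48 and 0.57 on the log2 scale. KLLA0C11121g was at 139 and 118 FPKM in isolate 1 and at 134 and 126 FPKM in isolate 2, against 6.02 and 9.39 FPKM in WT. KLLA0D08833g, the shortest of the 58 at 126 nt, was at 145 and 146 FPKM in isolate 1 and at 148 and 187 FPKM in isolate 2, against 10.4 and 10.1 FPKM in WT. In both the isolates overlapped or nearly touched, and both were well above WT.

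KLLA0A02387g was at 103 and 98.7 FPKM in isolate 1 and at 105 and 109 FPKM in isolate 2, against 5.38 and 8.28 FPKM in WT. KLLA0A06996g was at 228 and 236 FPKM in isolate 1 and at 200 and 231 FPKM in isolate 2, against 19.6 and 17.3 FPKM in WT. KLLA0D08811g was at 541 and 577 FPKM in isolate 1 and at 506 and 572 FPKM in isolate 2, against 55.3 and 45.9 FPKM in WT. For the last 2 genes the libraries of the isolates overlapped. KLLA0A11110g was at 370 and 404 FPKM in isolate 1 and at 520 and 701 FPKM in isolate 2, against 53.2 and 37.8 FPKM in WT. KLLA0E09021g was at 94.0 and 94.8 FPKM in isolate 1 and at 116 and 142 FPKM in isolate 2, against 10.2 and 9.65 FPKM in WT. In these last 2, isolate 2 was above isolate 1 in every library.

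The rest of the 15 largest differences were lower in level. KLLA0D05379g was at 89.7 and 90.5 FPKM in isolate 1 and at 92.8 and 98.1 FPKM in isolate 2, against 6.74 and 6.61 FPKM in WT (log2 3.57 and 3.65). KLLA0E09857g was at 71.1 and 65.6 FPKM in isolate 1 and at 83.6 and 82.5 FPKM in isolate 2, against 6.75 and 7.96 FPKM in WT (log2 3.05 and 3.33). PHO92 encodes a reader of methylated RNA that acts in meiosis. It was at 79.1 and 76.1 FPKM in isolate 1 and at 69.0 and 77.8 FPKM in isolate 2, against 6.93 and 6.43 FPKM in WT (log2 3.36 and 3.28). MET14, the kinase that activates sulfate for assimilation, was at 94.2 and 81.5 FPKM in isolate 1 and at 93.1 and 84.1 FPKM in isolate 2, against 8.67 and 7.66 FPKM in WT (log2 3.28 and 3.29). PHO92 and MET14 had overlapping levels in the isolates.

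The most abundant of the 58 in sir2Δ were genes already well expressed in WT. KLLA0C18117g, only 225 nt long, was at 5468 and 6679 FPKM in isolate 1 and at 7544 and 10974 FPKM in isolate 2, against 859 and 823 FPKM in WT (log2 2.85 and 3.46). It varied most among the 58 between the libraries of isolate 2, by 0.54 on the log2 scale. KLLA0F24464g was at 3757 and 4504 FPKM in isolate 1 and at 4344 and 5186 FPKM in isolate 2, against 631 and 614 FPKM in WT (log2 2.73 and 2.93). KLLA0B09064g was at 2231 and 2798 FPKM in isolate 1 and at 2664 and 2744 FPKM in isolate 2, against 331 and 351 FPKM in WT (log2 2.88 and 2.98). These 3 genes made up 54.0% to 61.2% of the summed FPKM of the 58 in the sir2Δ libraries, and 60.3% and 60.1% in WT.

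After them in sir2Δ level came KLLA0C06699g, KLLA0C06677g and MOH1, described above, then 2 further genes without a symbol. KLLA0C01562g was at 499 and 593 FPKM in isolate 1 and at 628 and 682 FPKM in isolate 2, against 96.0 and 94.3 FPKM in WT (log2 2.51 and 2.77). KLLA0A11352g was at 587 and 631 FPKM in isolate 1 and at 541 and 607 FPKM in isolate 2, against 99 and 104 FPKM in WT (log2 2.58 and 2.49). Isolate 2 was above isolate 1 at KLLA0C01562g, and the isolates overlapped at KLLA0A11352g.

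A metabolic group of 7 genes belonged to a list of fatty acid oxidation, the glyoxylate cycle and gluconeogenesis. PEX11, which drives the division of peroxisomes, was at 147 and 136 FPKM in isolate 1 and at 143 and 161 FPKM in isolate 2, against 22.9 and 23.6 FPKM in WT (log2 2.55 and 2.66). SPS19, a peroxisomal dienoyl-CoA reductase, was at 186 and 186 FPKM in isolate 1 and at 194 and 200 FPKM in isolate 2, against 34.1 and 33.2 FPKM in WT (log2 2.43 and 2.51). ECI1, an enoyl-CoA isomerase for unsaturated fatty acids, was at 102 and 100 FPKM in isolate 1 and at 87.9 and 109 FPKM in isolate 2, against 18 and 20.3 FPKM in WT (log2 2.35 and 2.30). All 3 act in or on peroxisomes, and for each the isolates differed little next to the distance from WT.

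CTA1, the peroxisomal catalase that breaks down the hydrogen peroxide made by fat oxidation, was at 113 and 142 FPKM in isolate 1 and at 105 and 128 FPKM in isolate 2, against 20.1 and 23.6 FPKM in WT (log2 2.49 and 2.36). The other 3 genes handle the carbon released. ACS1, an acetyl-CoA synthetase, was at 53.5 and 64.3 FPKM in isolate 1 and at 73.7 and 82.3 FPKM in isolate 2, against 12 and 11.8 FPKM in WT (log2 2.21 and 2.61). MLS1, malate synthase of the glyoxylate cycle, was at 31.0 and 35.0 FPKM in isolate 1 and at 34.1 and 37.4 FPKM in isolate 2, against 6.29 and 6.99 FPKM in WT (log2 2.15 and 2.27). SFC1 is the mitochondrial carrier that exchanges succinate for fumarate. It was at 114 and 105 FPKM in isolate 1 and at 75.5 and 75 FPKM in isolate 2, against 14.6 and 13.9 FPKM in WT (log2 2.86 and 2.32), and it was the one gene of the 7 whose isolate 2 libraries both lay under those of isolate 1.

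Other genes of the same list also changed. The list was chosen with earlier results of these data known, so its counts are not independent support. Of its 35 genes outside the 58, 23 were higher and 3 lower in sir2Δ than in WT (limma, adjusted p under 0.05), where 20.2% of all genes tested were higher and 19.9% lower. Their median log2 change was 1.10, beside −0.06 over all genes tested. The highest were PDH1, a dehydratase of propionate breakdown, at 4.45 (SE 0.18, adjusted p = 1.41e-06, limma), and POX1, the acyl-CoA oxidase that opens peroxisomal fat oxidation, at 3.65 (SE 0.24, adjusted p = 1.70e-05). POX1 averaged 57.0 FPKM in isolate 1 and 85.6 FPKM in isolate 2, against 4.61 FPKM in WT, just under the 5 FPKM required for the 58. The lowest were ATO3, an acetate and ammonium transporter homologue, at −1.10 (SE 0.29, adjusted p = 0.0194, limma), and ALD5, a mitochondrial aldehyde dehydrogenase, at −1.02 (SE 0.34, adjusted p = 0.0455). ALD5 missed the threshold under several settings, among them without replicate 1 of isolate 1 (adjusted p = 0.236, limma), without replicate 2 of isolate 2 (0.0586) and without replicate 2 of WT (0.0991), and ATO3 missed it without replicate 1 of isolate 1 (0.0618), where 1 gene of the list was lower.

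**Figure D2:**
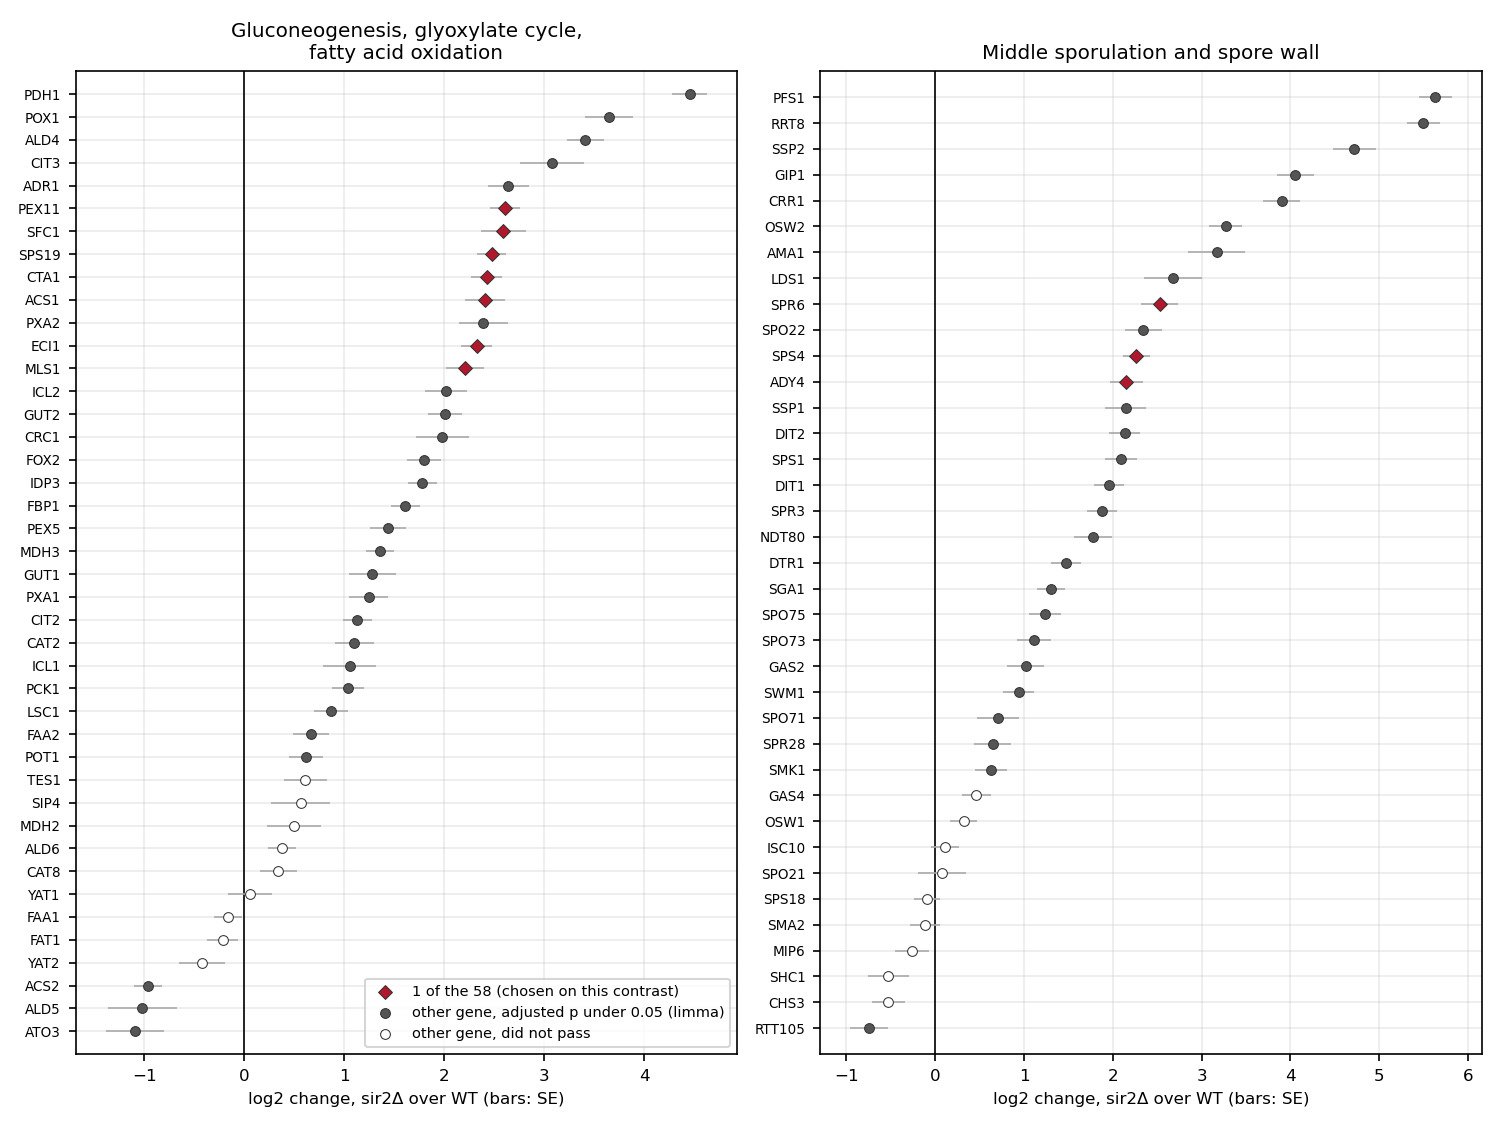
Log2 change in sir2Δ over WT, with its SE, of the genes of 2 lists: gluconeogenesis, glyoxylate cycle and fatty acid oxidation on the left, middle sporulation and spore wall on the right. Diamonds are genes of the 58, chosen on this contrast, for which no test is given; filled circles are other genes that passed limma's adjusted p of 0.05 and open circles those that did not. The 7 diamonds on the left lie between 2.21 (MLS1) and 2.61 (PEX11), below PDH1 at 4.45, and the 3 on the right between 2.15 (ADY4) and 2.53 (SPR6), below PFS1 at 5.63.

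Sporulation genes formed a second group. SPR6, induced during sporulation, was at 41.0 and 30.8 FPKM in isolate 1 and at 46.0 and 44.7 FPKM in isolate 2, against 6.48 and 5.78 FPKM in WT (log2 2.37 and 2.70). SPS4, also induced during sporulation, was at 118 and 127 FPKM in isolate 1 and at 121 and 147 FPKM in isolate 2, against 25.1 and 26.4 FPKM in WT (log2 2.2 and 2.33). ADY4, part of the meiotic plaque of the spindle pole from which spore membranes grow, was at 33.2 and 33.7 FPKM in isolate 1 and at 36.2 and 38.9 FPKM in isolate 2, against 7.34 and 7.04 FPKM in WT (log2 2.07 and 2.23). All 3 were low in WT, with SPS4 the highest of them in every library.

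From the list of early meiosis, ZIP2, needed for pairing of meiotic chromosomes, was at 27.6 and 30.2 FPKM in isolate 1 and at 36.3 and 36.4 FPKM in isolate 2, against 5.44 and 5.13 FPKM in WT (log2 2.25 and 2.57). It had the lowest WT level of the 58. Of the 34 other genes of middle sporulation and the spore wall, 24 (70.6%) were higher and 1 lower in sir2Δ (limma), where 20.2% of all genes tested were higher and 19.9% lower, with a median log2 change of 1.27. PFS1, needed to form spores, stood highest at 5.63 (SE 0.19, adjusted p = 7.34e-07, limma), then RRT8, a spore wall gene, at 5.50 (SE 0.19, adjusted p = 8.02e-07). The lowest were RTT105, at −0.75 (SE 0.21, adjusted p = 0.0241, limma), and the chitin synthase CHS3, at −0.53 (SE 0.19, adjusted p = 0.0542). RTT105, the 1 called lower, is counted because the list holds it. No sporulation role is claimed for it here, and later counts of other sporulation genes include it. CHS3 passed without replicate 2 of isolate 1 (adjusted p = 0.0494, limma), without replicate 1 of isolate 2 (0.0247) and without replicate 2 of WT (0.0431), and with these left out 2, 3 and 2 of the 34 were lower. Of the 35 other genes of early meiosis, 14 (40.0%) were higher and 3 lower (limma), beside the same shares of all genes. These lists, too, were chosen with earlier results of the data known.

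Single genes of the 58 came from 4 other lists. IDP1, the mitochondrial isocitrate dehydrogenase that uses NADP, was at 338 and 440 FPKM in isolate 1 and at 355 and 425 FPKM in isolate 2, against 58.6 and 61.9 FPKM in WT (log2 2.67 in each). ATH1, the acid trehalase, was at 38.3 and 41.2 FPKM in isolate 1 and at 43.7 and 44.3 FPKM in isolate 2, against 5.14 and 5.69 FPKM in WT (log2 2.67 and 2.81). ATG8, the ubiquitin-like protein that coats autophagosomes, was at 319 and 293 FPKM in isolate 1 and at 292 and 306 FPKM in isolate 2, against 77.7 and 66.5 FPKM in WT (log2 2.07 and 2.04). ATG8 had the smallest averaged difference of the 58, and MET14, from the sulfur list, is described above.

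The other genes of these lists did not move alike, and their counts stand beside 20.2% higher and 19.9% lower among all genes tested. In respiration and the TCA cycle (IDP1), 30 of 53 other genes were higher and 0 lower (limma; 1 was lower at an unadjusted p under 0.05). Autophagy and vacuolar proteolysis (ATG8) had 14 of 24 other genes higher and 0 lower (limma; 0 lower at an unadjusted p under 0.05). Sulfur assimilation and methionine (MET14) had 7 of 32 other genes higher (21.9%) and 6 lower, shares near those of all genes. Glycogen and trehalose (ATH1) had 2 of 5 higher and 0 lower (limma; 1 at an unadjusted p under 0.05), and heat shock and oxidative stress, which also lists CTA1, had 9 of 25 higher and 5 lower.

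Of the 21 genes with a symbol, 6 were in no list, MOH1 and PHO92 among them. ECM4, a glutathione transferase, was at 269 and 353 FPKM in isolate 1 and at 342 and 423 FPKM in isolate 2, against 43.5 and 37.7 FPKM in WT (log2 2.90 and 3.21). ESBP6, a relative of monocarboxylate transporters, was at 168 and 187 FPKM in isolate 1 and at 160 and 162 FPKM in isolate 2, against 37.6 and 35.9 FPKM in WT (log2 2.24 and 2.10). The isolates overlapped in ECM4, and in ESBP6 isolate 2 was the lower.

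MLH2, of the mismatch repair family, was at 57.6 and 54.7 FPKM in isolate 1 and at 57.0 and 56.6 FPKM in isolate 2, against 9.61 and 9.05 FPKM in WT (log2 2.47 and 2.48). INO4, an activator of phospholipid synthesis genes, was at 39.8 and 33.7 FPKM in isolate 1 and at 25.3 and 31.2 FPKM in isolate 2, against 5.02 and 6.10 FPKM in WT (log2 2.53 and 2.16). MLH2 was at nearly the same level in the 4 sir2Δ libraries, while both INO4 libraries of isolate 2 lay under those of isolate 1.

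A further 18 genes without a symbol were at strain means of 40.5 to 214 FPKM in isolate 1 and 43.6 to 264 FPKM in isolate 2, against 7.39 to 33.2 FPKM in WT. Their log2 differences ran from 2.01 to 3.22 in isolate 1 and from 2.13 to 3.25 in isolate 2.

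The threshold fell in a continuous range of values. Just inside were KLLA0E20945g (log2 2.01 and 2.36 in isolates 1 and 2), ATG8 (2.07 and 2.04) and KLLA0B13926g (2.07 and 2.25). Just outside were SPS1, a sporulation kinase, at 2.00 and 2.19, where isolate 1 fell short in the fourth decimal, ETR1 (2.17 and 2.00) and KLLA0F05335g (2.30 and 2.00). At the lower bound of WT level, ZIP2 (5.29 FPKM), KLLA0D09240g (5.39 FPKM) and ATH1 (5.42 FPKM) were inside, and KLLA0B10373g (4.96 FPKM), KLLA0E09153g (4.77 FPKM) and POX1 were outside. Of genes that met the other terms, 7 passed the fold in isolate 1 only and 16 in isolate 2 only.

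The rule did not use gene annotation or length. Only 21 of the 58 (36.2%) had a gene symbol in RefSeq, against 81.3% of the 4407 internal genes of 5 to 1500 FPKM in WT. The 69 internal genes under 5 FPKM in WT that passed the same fold had a symbol in 40.6% of cases. The median gene length was 921 nt in the 58 and 1266 nt in the 4407, and 27.6% of the 58 were under 600 nt, against 14.5%. The 69 had a median of 1062 nt. By chromosome, 19 of the 58 were on F, 11 on E, 9 on D, 7 each on A and C and 5 on B, which is 15.8 per 1000 genes on F and 8.06 per 1000 on B, the highest and lowest shares. No annotated span of the 58 overlaps that of a neighbour, but the kit did not keep the strand, so transcription of the opposite strand cannot be told apart from that of the gene.

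The isolates can also be set against each other, a difference that does not use the WT level, although the WT libraries enter limma's estimate of the spread. Both isolates had to pass the fold, which limits how far a gene near the threshold can differ between them, and p-values here measure technical spread only. Of the 58 genes, 15 (25.9%) were higher in isolate 2 than in isolate 1 and 1 was lower (limma on 6 libraries, adjusted p under 0.05), where 7.89% of all genes tested were higher and 10.8% lower. The difference was above 0 in 43 (74.1%) and below 0 in 15, where it was above 0 in 51.2% of all genes tested. Of the genes tested within the range of sir2Δ levels of the 58, 59.5% were above 0. The median log2 difference of the 58 was 0.14, beside 0.01 over all genes tested. Among the 69 genes under 5 FPKM in WT past the same fold, 5 were higher and 0 lower (limma; 6 and 3 at an unadjusted p under 0.05), with a median of 0.01.

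The isolate difference of genes in general also moved with level. Of all genes tested at 100 FPKM or more in sir2Δ, 13.5% were higher in isolate 2 and 3.58% lower. Of those under 100 FPKM, 4.92% were higher and 14.6% lower. The same split of the 58 gave 9 of 30 higher (30.0%) and 0 lower (0 also at an unadjusted p under 0.05) at 100 FPKM or more. Under 100 FPKM it gave 6 of 28 higher (21.4%) and 1 lower (limma). At 100 FPKM or more the difference was above 0 in 76.7% of the 58 and in 67.5% of all genes tested. Under 100 FPKM these shares were 71.4% and 42.6%.

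The largest differences were at genes without a symbol. KLLA0F15037g, with the values given above, was 0.74 higher in isolate 2 (log2, SE 0.16, adjusted p = 0.00694, limma). KLLA0D09240g was at 60.6 and 60.7 FPKM in isolate 2 and at 34.7 and 42.3 FPKM in isolate 1, with 6.54 and 4.24 FPKM in WT (log2 difference 0.65, SE 0.14, adjusted p = 0.00684, limma). Isolate 2 was above isolate 1 in every library of both genes. KLLA0A11110g (0.64, SE 0.15, adjusted p = 0.00875, limma) and KLLA0C18117g (0.59, SE 0.14, adjusted p = 0.0122) followed. KLLA0F20900g was at 287 and 313 FPKM in isolate 2 and at 192 and 217 FPKM in isolate 1, with 32.6 and 29.1 FPKM in WT (0.55, SE 0.10, adjusted p = 0.00163, limma). Named genes higher in isolate 2 were MOH1 (0.43, adjusted p = 0.0115, limma), ACS1 (0.40, adjusted p = 0.0146) and ZIP2 (0.32, adjusted p = 0.0351). The other genes called had differences of 0.30 (KLLA0B09658g) to 0.44 (KLLA0E09021g). Without replicate 2 of isolate 2 the 5 largest missed the threshold (adjusted p of 0.0598 to 0.201, limma), and without replicate 1 of isolate 1 the first 4 did (0.147 to 0.199). KLLA0F15037g (0.124) and KLLA0D09240g (0.0945) also missed it without replicate 1 of isolate 2, and KLLA0A11110g (0.0602) without replicate 2 of isolate 1.

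The one gene of the 58 called lower in isolate 2 was SFC1, at −0.53 (SE 0.09, adjusted p = 0.00102, limma). The next lowest did not pass: INO4 at −0.37 (adjusted p = 0.0544, limma), ESBP6 at −0.14 (0.316), CTA1 at −0.12 (0.536) and KLLA0A06996g at −0.11 (0.478). INO4 passed without replicate 1 (0.0228) and without replicate 2 of WT (0.0235). SFC1 was lower in every alternative run, including each left-out library. The count of 15 was not steady: it was 3 of 58 without replicate 1 of isolate 1 (119 genes higher over all), 9 without replicate 1 of isolate 2 (259 genes) and 1, KLLA0C06699g, without replicate 2 of isolate 2 (71 genes, against 396 with all libraries). The number above 0 stayed between 40 and 49 of 58 in all alternatives.

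**Figure D3:**
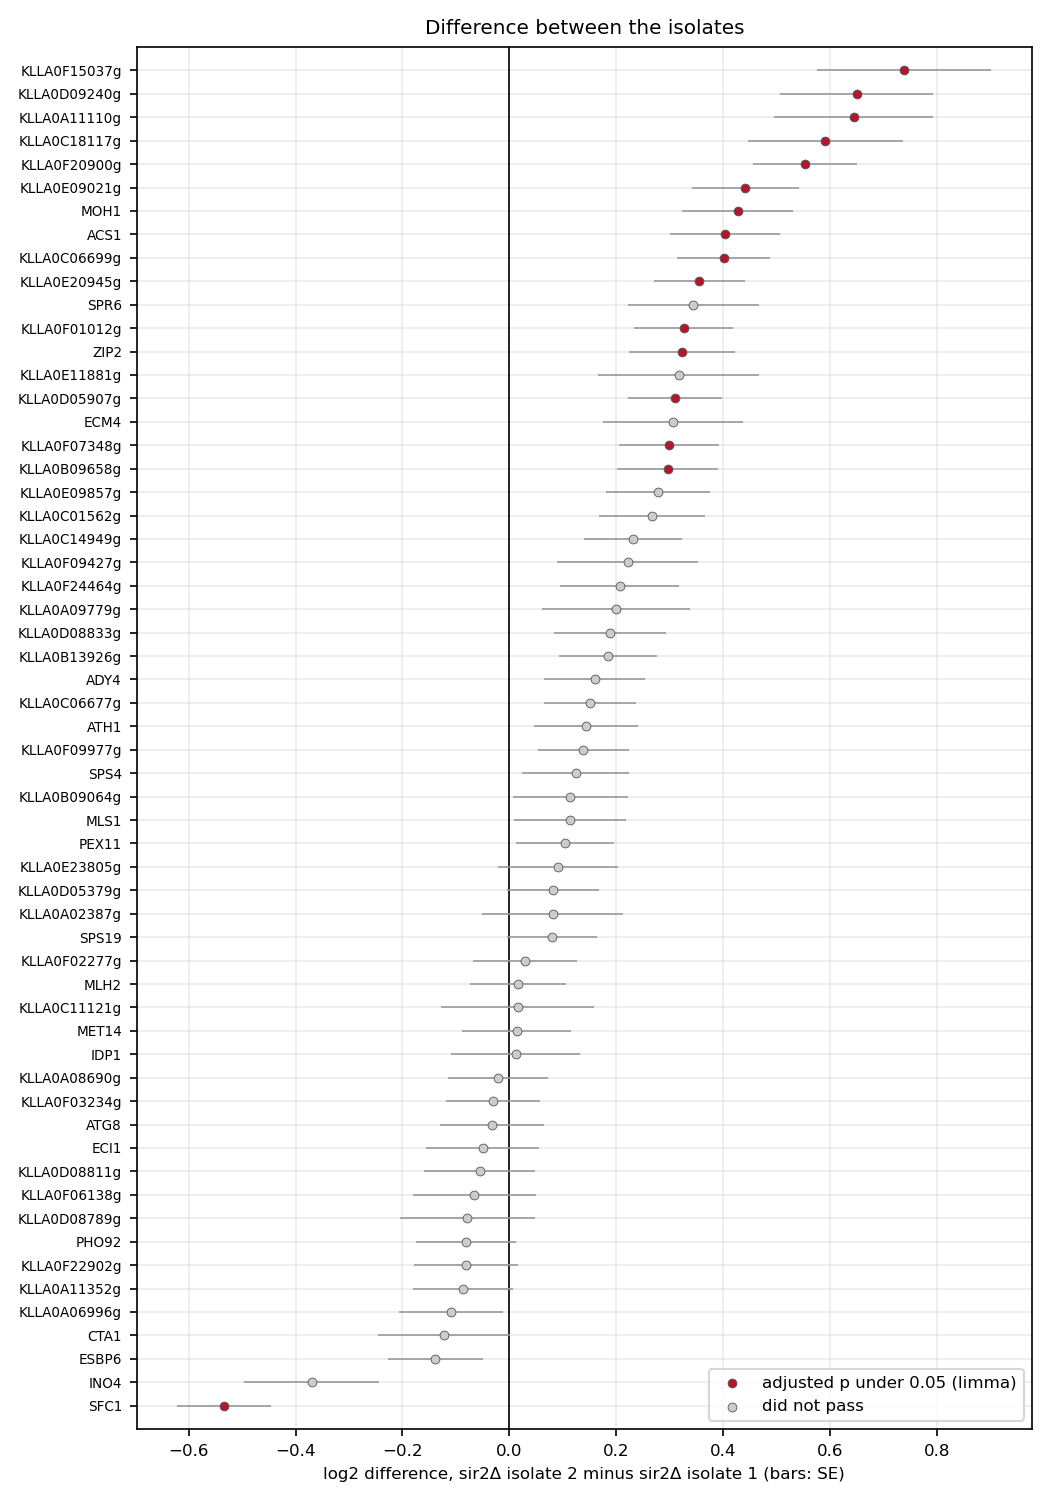
Log2 difference, sir2Δ isolate 2 minus sir2Δ isolate 1, of each of the 58 genes, with its SE from limma on 6 libraries. Filled points passed an adjusted p of 0.05. Values run from 0.74 at KLLA0F15037g to −0.53 at SFC1, and 43 of the 58 (74.1%) lie right of 0, where 51.2% of all genes tested were above 0.

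The genes next to the 58 were compared between sir2Δ and WT, since the rule used position only to leave out chromosome ends. Of 107 nearest genes that were not among the 58, 29 (27.1%) were higher and 14 (13.1%) lower in sir2Δ (limma). Of all genes tested outside the 58, 19.2% were higher and 20.1% lower. The median log2 change was −0.01 in the nearest genes and −0.07 in all genes tested outside the 58. At 2 genes away 25 of 106 were higher (23.6%) and 23 lower (21.7%). At 3 genes 16 of 106 were higher (15.1%) and 20 lower (18.9%), and at 4 genes 16 higher (15.1%) and 21 lower (19.8%). At 5 genes 12 of 104 were higher (11.5%) and 20 lower (19.2%). Around the 69 genes low in WT, 26 of 126 nearest genes were higher (20.6%) and 23 lower (18.3%).

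Of the 58, 29 had no adjoining gene called higher, 20 had 1 and 9 had both. In unbroken stretches of genes called higher, those 29 stood alone, 14 were in stretches of 2 genes and 15 in 11 stretches of at least 3, of which the longest held 6. Adjoining genes of the 58 are counted here too, and 20.2% of all genes tested were called higher. The same counts over all genes are not given, so nothing about clustering is read from these. There were 7 of the 58 that adjoined another of the 58. The rule was met by 1.32% of the 4407 internal genes in its WT range. At 13 of the 58 a neighbour was called lower, where 19.9% of all genes tested were. A gene counts here if either neighbour was lower, and the same count over all genes is not given. Nothing is therefore read from it. The lowest of the neighbours was KLLA0E05897g beside MOH1, which changed by −1.99 (SE 0.15, adjusted p = 4.07e-05, limma).

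The stretch that holds KLLA0C06677g and KLLA0C06699g continued through URH1, a uridine nucleosidase (log2 1.43), DIT2 (2.13) and DIT1 (1.96), which make the dityrosine of the spore wall. On chromosome D, KLLA0D08789g, KLLA0D08811g and KLLA0D08833g adjoined one another, and all 3 were among the 58. KLLA0D08789g was at 100 and 78.6 FPKM in isolate 1 and at 75.7 and 93.0 FPKM in isolate 2, against 9.36 and 8.0 FPKM in WT. The genes on either side of these 3 were not called higher, with ERG9 at −0.02 and NSE3 at −0.19.

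On chromosome F, KLLA0F24464g and INO4 stood on either side of KLLA0F24486g, which changed by 6.13, and were followed by ETR1 at 2.08. In the longest stretch KLLA0F09977g lay 2 genes from POX1, with CHC1 (1.00), CHO1 (0.81), KEX1 (0.80) and ARO8 (0.96). SFC1 adjoined KLLA0F03234g, also one of the 58. ECM4 lay beside TVP15 (1.96), KLLA0E09857g beside MET3, the sulfurylase that precedes MET14 in sulfate assimilation (1.01), and KLLA0C01562g beside FUS1, a gene of cell fusion in mating (1.17). In the stretches with IDP1, MET14 and KLLA0D05907g, the one gene of the 58 changed by 2.60 to 3.28 and the others by 0.60 to 0.99. Such a gap is partly set by the rule. A neighbour in its WT range that passed the fold in both isolates would itself be among the 58. KLLA0D09240g adjoined KLLA0D09218g, which was listed at 0 in WT.

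**Figure D4:**
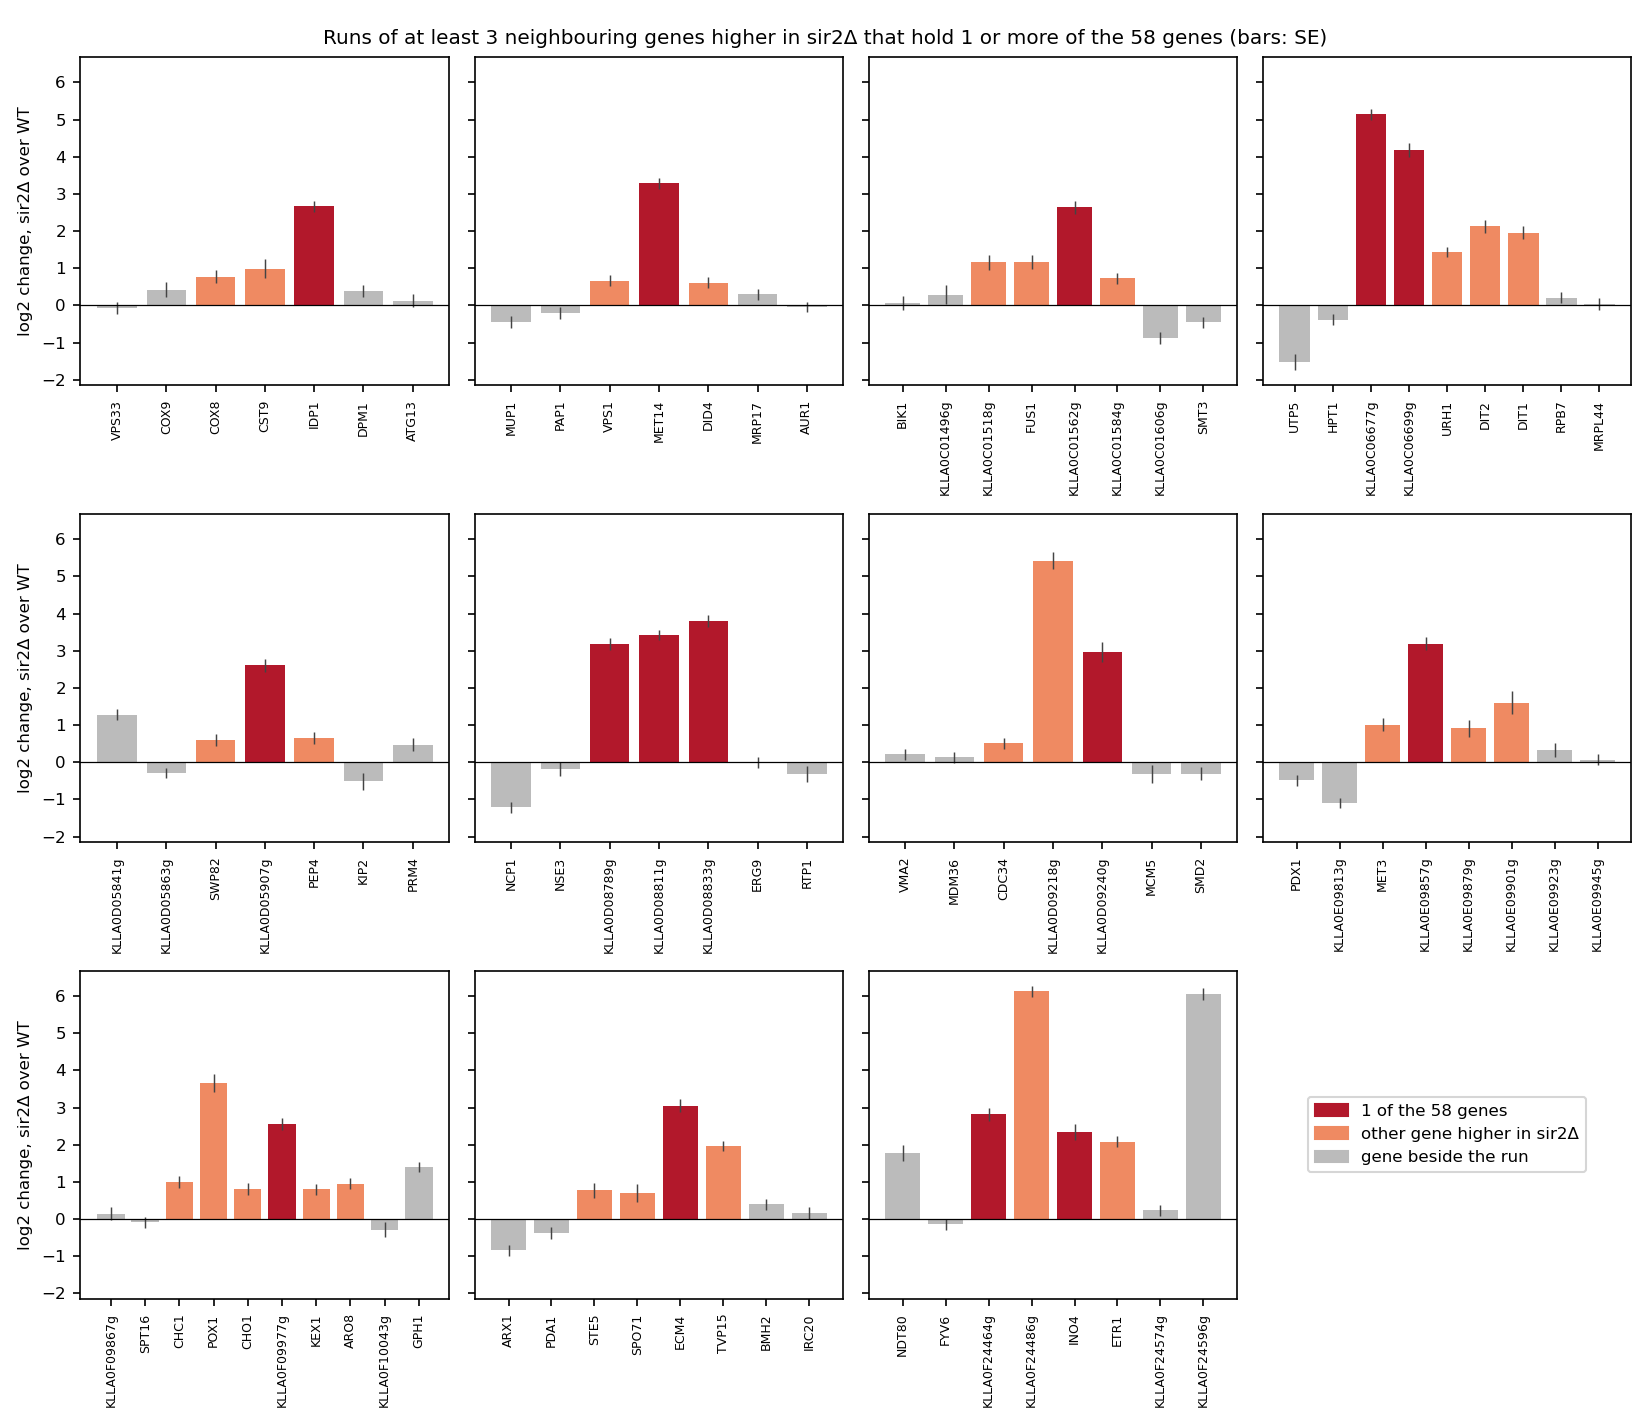
Log2 change in sir2Δ over WT, with its SE, along 11 stretches of at least 3 neighbouring genes called higher in sir2Δ (limma, adjusted p under 0.05) that hold 1 or more of the 58 genes, with 2 further genes on each side. Dark bars are genes of the 58, light bars other genes called higher and grey bars the flanking genes. In most panels the genes of the 58 stand above their neighbours, which is in large part set by the rule. A gene in its WT range and not dropped that passed the fold in both isolates would itself be among the 58. KLLA0F24486g at 6.13, POX1 at 3.65 and KLLA0D09218g, which is listed at 0 in WT, stand above the genes of the 58 in theirs. Each of these lay under the WT minimum of the rule. The grey flanking genes run from −1.53 (UTP5) to 6.06 (KLLA0F24596g), and KLLA0F24596g also stands above the genes of the 58 in its panel.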

How the data were processed

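The deposited values are FPKM. Per the submitters' processing notes, the authors used TopHat2 2.0.10 and Cuffnorm 2.2.1. The sources used here do not name the genome build, the annotation or the Cuffnorm scaling. Libraries were non-stranded, per the labels' protocols. No counts are given, so the depth is unknown and no counting interval is printed. Names, gene lengths and gene order came from RefSeq (assembly ASM251v1), which matched all 5076 identifiers.

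All tests used log2(FPKM + 1), a scale that understates the change of low genes. For sir2Δ against WT, 2 isolate means were set against 1 WT mean in limma (version 3.58.1, under R 4.3.3). The fit was trended on intensity, with 1 residual degree of freedom. The spread of a gene came from the difference between the isolates and from limma's estimate shared across genes (7.03 prior degrees of freedom). These p-values therefore hold no spread of WT between strains or cultures. The isolates were compared over 6 libraries in 3 groups. Tests were two-sided, with Benjamini-Hochberg adjustment over the 5021 genes whose mean reached 1 FPKM, and were tested on simulated data. The members and the 15 gene lists were chosen with earlier results of these data known. Values in every library are given for the 15 largest differences, the 10 highest sir2Δ levels and list members. Of list genes outside the 58, the 2 highest and 2 lowest are named where a list holds at least 2 of the 58, and of the isolate contrast the 5 at each end. Others were named after their values were seen. Promoter motifs were not analysed here. Alternatives were the pseudocount, the filter, quantile and median scaling, left-out libraries, a replicate block, no intensity trend and, added after seeing the data, neighbours without adjoining members and a set of genes lower in WT.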

Additional observations from a re-analysis of the deposited data

Results flagged for a closer look

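Of the 58 genes, 16 differed by a direct test of isolate 2 against isolate 1 (limma, adjusted p under 0.05). The 5 largest of the 15 that were higher and the 1 that was lower are given as values only. KLLA0F15037g was higher in isolate 2 by 0.74 on the log2 scale, KLLA0D09240g by 0.65, KLLA0A11110g by 0.64, KLLA0C18117g by 0.59 and KLLA0F20900g by 0.55, each in both libraries of isolate 2 over both of isolate 1. SFC1 was the opposite, at −0.53. The first 4 missed the threshold without replicate 1 of isolate 1 (adjusted p of 0.147 to 0.199, limma), and all 5 missed it without replicate 2 of isolate 2 (0.0598 to 0.201), with the same direction.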

How the results depend on the processing

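The deposited FPKM give no read number, WT is 1 strain with technical libraries, and genes near 5 FPKM rest on low values. Of ids that met the rule, there were 65 with a pseudocount of 0.1, 44 with 5, 70 with quantile normalization (53 of the 58 among them), 65 with median scaling and 58 to 62 with 1 library left out (56 to 58 of the 58). With a pseudocount of 5 the median log2 difference of the 58 was 2.42. The isolate contrast called 2 of the 58 lower (SFC1 and INO4) with a pseudocount of 5, with median scaling and with the replicate block. With quantile normalization its median over the 58 was 0.096, KLLA0C18117g missed the threshold (adjusted p = 0.0511, limma), 23 neighbours were lower, against 14, 3 other sporulation genes were lower, against 1, and all genes gave 1103 higher and 1393 lower in sir2Δ, against 1013 and 1000. A pseudocount of 5 gave 2 other sporulation genes lower.

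With 1 library left out, the isolate contrast called 71 to 461 genes higher and 161 to 465 lower, against 396 and 541. Of the 58 it called 1 to 15 higher and 1 to 2 lower, with a median of 0.082 to 0.18. CTA1, not called, ran from −0.29 to 0.044 and was above 0 without replicate 2 of isolate 1 and, at 0.021, without replicate 1 of isolate 2. Other sporulation genes lower numbered 1 to 3, other genes of fat and acetate metabolism lower 1 to 3, and the median change of neighbours was 0.0079 to 0.052. CHS3 passed the threshold in 6 alternatives. The cause of these shifts was not tested.

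For sir2Δ against WT the replicate block was fitted to all 6 libraries, not to strain means, so technical libraries counted as independent. Its counts therefore do not show the effect of the block alone. The replicate block called 1675 genes lower and 1443 higher in sir2Δ, 29 neighbours lower and 2 other sporulation genes lower. Between the isolates it called 20 of the 58 higher, where 541 genes (10.8%) were higher over all genes tested. The libraries share only a number: deviations of replicate 1 from the strain mean correlated at 0.21 between the isolates and at 0.0052 and 0.055 between each isolate and WT. Without the members that adjoin another, 28 of 101 neighbours were higher.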

Other observations

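Of the 15 lists, 7 held none of the 58 genes. Their counts in sir2Δ against WT (limma, adjusted p under 0.05) stand beside 20.2% higher and 19.9% lower among all genes tested. Ribosome biogenesis had 56 of 59 genes lower and 0 higher (0 also at an unadjusted p under 0.05). Mating and pheromone response had 16 of 40 higher and 4 lower, and nitrogen catabolism 15 of 39 higher and 3 lower. NAD+ biosynthesis and salvage had 5 of 12 higher and 1 lower. NPT1 (log2 3.05 and 3.10 in isolates 1 and 2) and TNA1 (2.01 and 2.32) are among the 5. Both met the other terms of the rule and were dropped by name, so the rule itself left this list without any of the 58. Vitamin genes had 9 of 23 higher and 6 lower, drug, metal, sugar and polyol transporters 11 of 31 higher and 8 lower, and cell wall and surface genes 5 of 23 higher (21.7%) and 3 lower, the last near or below the shares of all genes.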
